A study of Ovis aries with 30 samples.

Results

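The genes described here are 10 genes of skeletal muscle, ACTA1, CKM, MYLPF, TNNC2, TNNT3, TNNI2, MB, MYBPC1, KLHL40 and KLHL41, out of 28524 genes in the count table. They were picked by name, with their values in these libraries known, because a few thyroid libraries held far more of their reads than the others. Their levels and fold changes are therefore given as a description, and no test of them stands as support for anything. RNA was sequenced from the thyroid and from brown adipose tissue (BAT) around the kidneys of 15 newborn Romney lambs, which gave 30 libraries. The cold group (n = 6) spent 2 days at 4 °C and the ambient temperature (AT) group (n = 6) spent 2 days at 20 to 22 °C, while the tissues of the control group (n = 3) were taken within about 24 h of lambing. Treatment and age cannot be told apart in a comparison with the control group, and cold against AT is the only comparison of lambs of the same age. Each library is 1 tissue of 1 lamb, no lamb was genetically altered, and a number such as AT 3 stands for the same lamb in both tissues. Lambs are numbered here by sample order within each group. These numbers need not be those of the study, which calls the controls it kept Control 1 and Control 2. The control that the study left out of its comparisons in both tissues, found by matching counts, is Control 2 here. The main comparisons below leave it out as well, while levels are given for all libraries.

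Skeletal muscle fibres contract when the myosin of the thick filaments pulls on the actin of the thin filaments, and calcium starts this through the troponin complex on the thin filament. Fast and slow fibres build these filaments from different isoforms of the same proteins. Neither thyroid follicle cells nor fat cells build such filaments. In the neck the thyroid lies against the trachea beneath the strap muscles.

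Of the 15 thyroid libraries, 2 carried most of the reads of the 10 genes. The summed level was 63246 CPM (counts per 1000000 counts in genes) in the thyroid library AT 3, 10491 in Control 1, 117.6 in Cold 4, 110.2 in Control 2 and 40.2 in AT 2, and it lay between 9.16 and 16.1 in the other 10. In AT 3 the genes took 6.32% of all counts (95% exact binomial interval 6.316 to 6.333%) and in Control 1 they took 1.05% (1.045 to 1.053%), where the intervals cover counting error only. AT 3 stood at 4191 times the median of the tissue and Control 1 at 695 times. Libraries above 10 times the tissue median are called muscle-rich below, a limit that only these 2 passed. Just under it, Cold 4 stood at 7.79 times and Control 2 at 7.31 times the median, and by the normalised counts defined below Control 2 would have passed it at 11.5 times.

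In BAT the summed level lay between 3.38 and 13.7 CPM in all 15 libraries, and no library stood over 1.86 times the median of 7.37 CPM. The BAT library of lamb AT 3 held 6.29 CPM and ranked at 11 of 15 from the top, and that of Control 1 held 11.4 CPM and ranked at 4. Without the 2 LOC genes and the ribosomal RNA genes described below, the BAT library of Control 1 was the highest of the 15, with 40.1 CPM and 1.94 times the median. Control 2 followed with 31.9 CPM and Control 3 with 27.9, above the highest treated library, AT 4, with 26.1. The BAT library of AT 3 held 18.98 CPM. By the normalised counts defined below, however, AT 4 with 396 lay above Control 3 with 313. In a piece of tissue, more cells of a type and more RNA per cell cannot be told apart.

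**Figure D1:**
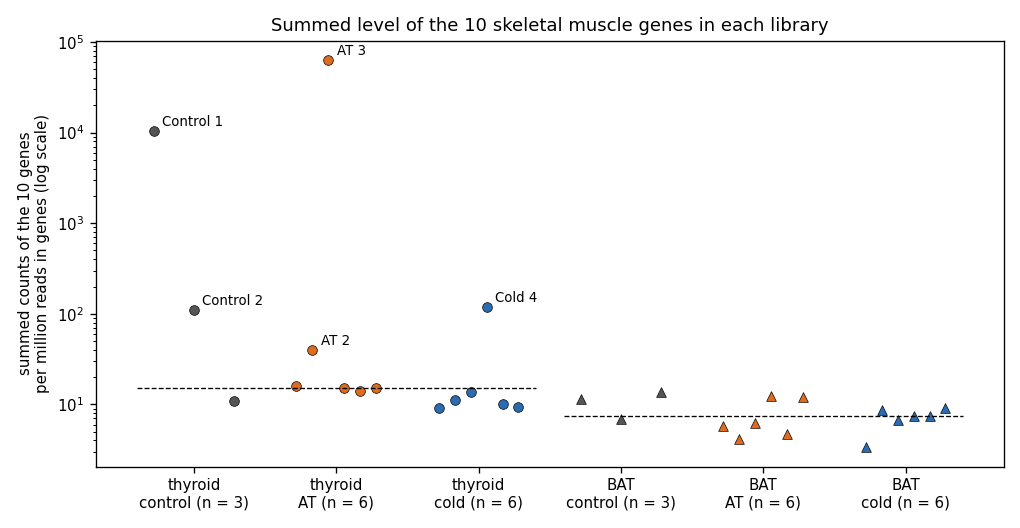
Summed level of the 10 skeletal muscle genes in CPM (log axis) in each library, by tissue and group, with 1 point per library and a dashed line at the median of each tissue. AT 3 at 63246 CPM and Control 1 at 10491 CPM stand above the other 13 thyroid libraries, the highest of which is Cold 4 at 117.6 CPM, and the 15 BAT libraries lie between 3.38 and 13.7 CPM.

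Total counts lay between 25062784 and 30124871 per thyroid library and between 31556500 and 37025998 per BAT library. A single read was thus a somewhat larger share of a thyroid library than of a BAT library. A pair of uncharacterised genes, LOC114112617 and LOC114115287, took 5.18 to 27.8% of the counts in thyroid and 43.8 to 76.5% in BAT. Without this pair and the 18 ribosomal RNA genes, the summed level of the 10 genes lay between 13.8 and 40.1 CPM (Control 1) in BAT and between 10.1 and 74735 CPM in thyroid. Below, a normalised count is a count divided by a size factor from the 3 reference genes that the study used for scaling, ACTB, RPL19 and HUWE1. That factor was 0.769 for the thyroid library AT 3 and 0.945 for Control 1.

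The thin filament is represented by ACTA1, the actin of adult skeletal muscle, at chr25:952275-955200 on the minus strand of Oar_rambouillet_v1.0, the build of the count table. It had 993306 reads in AT 3, 122744 in Control 1, 1660 in Cold 4, 904 in Control 2 and 472 in AT 2. In the other 10 thyroid libraries it had 7 to 159 reads, with 71, 65, 159 and 126 in AT 6, AT 1, AT 4 and AT 5, 10, 37, 58, 40 and 8 in Cold 1, 2, 3, 5 and 6, and 7 in Control 3. The AT group mean was 215415 ± 527246 normalised counts (SD, n = 6) with AT 3 and 168 ± 172 (SD, n = 5) without it. The control mean was 43777 ± 74619 (SD, n = 3) and the cold mean 285 ± 631 (SD, n = 6), so the SD was larger than the mean in all 3 groups. Since reads that map to several places were counted, reads could be shared between actin genes. ACTC1, the heart actin, had 96693 reads in AT 3, 45057 in Control 1 and 3 to 133 in the other 13 thyroid libraries, while ACTA2, the smooth muscle actin, had 1767, 1141 and 396 to 2339.

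The 3 troponin genes are the fast fibre isoforms of calcium-binding troponin C (TNNC2, chr13:77960813-77963931, minus strand), inhibitory troponin I (TNNI2, chr21:51507871-51510426, minus strand) and tropomyosin-binding troponin T (TNNT3, chr21:51443015-51459400, minus strand). TNNC2 had 93626 reads in AT 3 and 12063 in Control 1, against 182 in Cold 4, 179 in Control 2 and 10 to 53 in the other 11 thyroid libraries. TNNI2 had 111889 and 14582 in the muscle-rich libraries, 206 in Cold 4, 224 in Control 2 and 17 to 80 in the rest. TNNT3 had 171674 and 26273, with 278 in Cold 4, 715 in Control 2 and 26 to 123 in the rest. For all 3 subunits AT 3 was the highest library, Control 1 came next, and Cold 4 and Control 2 lay above the remaining 11.

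Of the thick filament, MYLPF is the regulatory light chain of fast myosin (chr24:27165866-27168354, plus strand) and MYBPC1 is slow myosin-binding protein C (chr3:183090793-183186731, plus strand). MYLPF had 290276 reads in AT 3, 31906 in Control 1, 430 in Cold 4, 275 in Control 2 and 2 to 96 in the other 11 thyroid libraries. In AT 3 this was 37788 times the median of the 13 other libraries, the widest gap among the 10 genes. MYBPC1 had 61569 reads in AT 3, 7795 in Control 1 and 88 in Cold 4, but only 19 in Control 2, within the 8 to 39 of the remaining libraries. MYLPF overlaps a gene of the other strand over 260 exon bases, and as the strand setting of the counting is not given in the sources used here, its reads could include some of that gene. The other 9 genes overlap no gene of the table.

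CKM is the muscle creatine kinase, which buffers ATP (chr14:56446425-56455657, minus strand), and MB is myoglobin, which stores oxygen (chr3:191831400-191847700, minus strand). CKM had 135231 reads in AT 3, 43668 in Control 1, 348 in Control 2, 202 in Cold 4 and 0 to 90 in the other 11 thyroid libraries. Cold 6 and Control 3 had 0 reads of CKM, which allows up to 0.110 and 0.106 CPM when a count of 0 is taken to allow 3 reads. MB had 21230 reads in AT 3 and 1897 in Control 1, with 31 reads in Cold 4, and its 16 reads in Control 2 were within the 2 to 21 of the rest. CKM therefore set Control 2 apart from the low libraries, and MB did not.

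KLHL40 (chr19:15728500-15735728, plus strand) and KLHL41 (chr2:151046199-151061261, minus strand) encode kelch proteins of the sarcomere, where KLHL40 stabilises thin filament proteins. Their order differed from that of the other 8 genes, as Control 1 and not AT 3 was the highest library. KLHL40 had 7478 reads in Control 1, 2631 in AT 3 and 66 to 222 in the other 13 thyroid libraries. Cold 4 with 126 reads and Control 2 with 66 were among those 13 with no gap, and the highest of them was Control 3. KLHL41 had 30880 reads in Control 1, 23850 in AT 3, 63 in AT 2, 58 in Cold 4 and 11 to 29 in the rest.

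**Figure D2:**
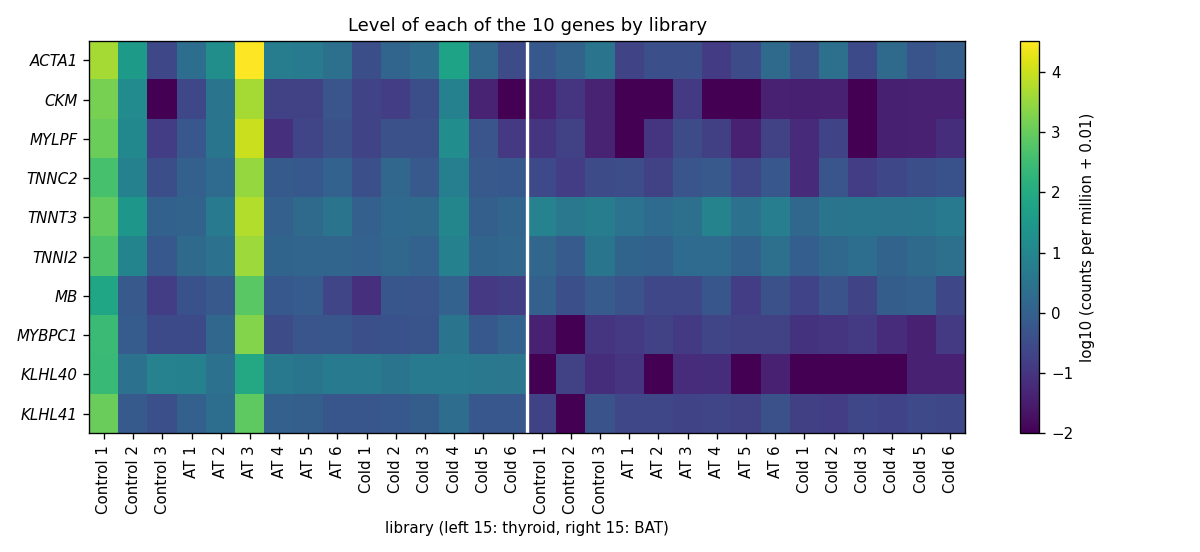
Level of each of the 10 genes (rows) in each of the 30 libraries (columns, thyroid to the left of the line and BAT to the right), as the log10 of CPM + 0.01. AT 3 and Control 1 are bright for all 10 genes, whereas Cold 4 and Control 2 are raised for the actin, troponin, MYLPF and CKM rows but not for KLHL40.

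Set against each other, the muscle-rich libraries differed by gene. In normalised counts the median ratio of AT 3 to Control 1 over the 10 genes was 9.48, and 8 of the 10 were higher in AT 3. The ratio was 13.7 for MB, 11.2 for MYLPF, 9.94 for ACTA1, 9.70 for MYBPC1, 9.53 for TNNC2, 9.43 for TNNI2 and 8.03 for TNNT3. It was 3.80 for CKM, 0.949 for KLHL41 and 0.432 for KLHL40. Of all thyroid counts of a gene, AT 3 alone held 75.3 to 91.2% for 8 genes, 43.3% for KLHL41 and 22.4% for KLHL40. Each of these libraries is 1 lamb, so the ratios have no replicate error.

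A list of 84 further genes of skeletal muscle, drawn up from general knowledge and with earlier results known, was read in the same way. The table held 77 of them. AT 3 lay above all 13 other thyroid libraries for 74 and Control 1 for 68, and they exceeded the highest of the 13 by more than 10 times for 64 and 45. The 10 genes and the further list together took 14.2% of all counts in AT 3 (95% exact binomial interval 14.16 to 14.18%), 2.25% in Control 1 (2.25 to 2.26%), at most 0.127% in any other thyroid library and at most 0.0426% in any BAT library. AT 3 and Control 1 thus stood apart for the wider list as they did for the 10 genes.

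In level per length, as TPM (reads per base of exon, scaled to sum to 1000000 in a library), ACTA1 was the highest muscle gene in both libraries, with 37363 TPM in AT 3 and 5022 in Control 1. In AT 3 it was followed by MYLPF with 28532 TPM (3411 in Control 1), MYL1, an essential light chain of fast myosin, with 15409 (971) and MYH2, a fast myosin heavy chain, with 8840 (334). In Control 1 the second was CSRP3, a muscle LIM protein, with 3462 TPM (2821 in AT 3), ahead of MYLPF. TNNI2, TNNC2 and TNNT3 had 8366, 8012 and 7612 TPM in AT 3, and 1186, 1123 and 1267 in Control 1. The 3 subunits of the fast troponin complex were thus within a narrow range of each other in both libraries. CKM had 6394 and 2246 TPM, MB 1205 and 117, MYBPC1 968 and 133, KLHL41 569 and 802, and KLHL40 80.9 and 250. Of the further list the highest in AT 3 after MYL1 and MYH2 were MYL2, the slow regulatory light chain, with 6024 TPM, the tropomyosin TPM2 with 5750, the slow troponins TNNT1 and TNNC1 with 3849 and 3792, CSRP3, and the slow troponin TNNI1 with 1997.

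**Figure D3:**
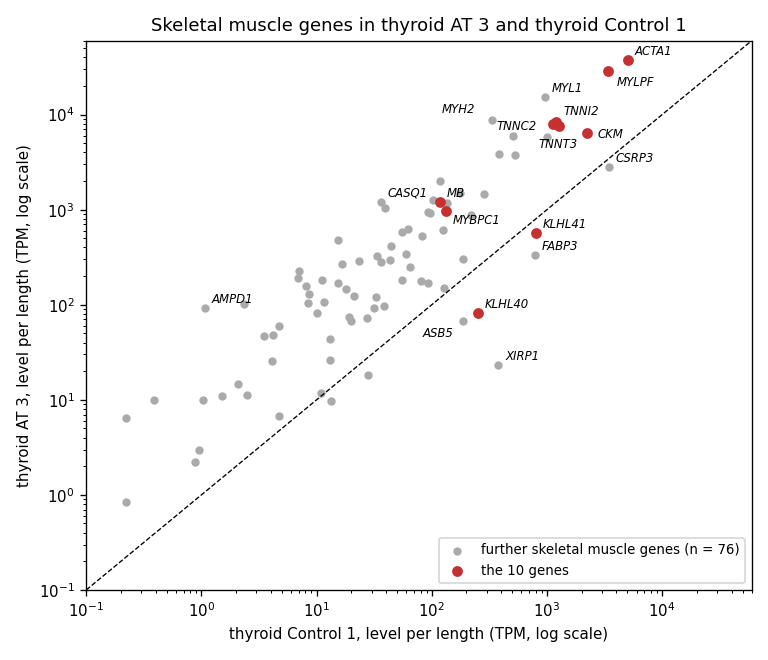
Level per length (TPM, log axes) of the 10 genes (red) and the further skeletal muscle genes (grey) in the thyroid library AT 3 against Control 1, with 1 point per gene and a dashed line at equal levels. Most points lie above the line, with ACTA1 at 37363 against 5022 TPM, while KLHL40, KLHL41, CSRP3, XIRP1, ASB5, FABP3, CHRNE and ASB11 lie below it, and KBTBD13, with 0 reads in Control 1, is not drawn.

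Of the 77 further genes, 72 had more normalised counts in AT 3 than in Control 1, with a median ratio of 10.03. The highest ratios were those of AMPD1, the muscle AMP deaminase, at 116, the carbonic anhydrase CA3 at 58.4 and CASQ1, the fast calsequestrin, at 45.2, and that of CSRP3 was 1.09. Those below 1 were XIRP1, a protein of muscle attachment sites, at 0.0817, ASB5 at 0.485, the fatty acid carrier FABP3 at 0.568, the acetylcholine receptor subunit CHRNE at 0.862 and ASB11 at 0.968. AMPD1, CA3, XIRP1, ASB5 and CHRNE were singled out after their values were seen. KLHL40 and KLHL41 were thus 2 of a small number of muscle genes that were higher in Control 1.

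Transcripts of both fast and slow fibre isoforms were present in both libraries. The 7 fast fibre genes outside the 10 summed to 39596 CPM in AT 3, 1954 in Control 1 and 5.60 to 71.8 in the other 13 thyroid libraries, with the highest in Cold 4. The 7 slow fibre genes summed to 7696, 735 and 4.70 to 21.1 CPM. In TPM, the ratio of the fast to the slow isoform in AT 3 and Control 1 was 2.11 and 2.13 for troponin C (TNNC2 to TNNC1), 4.19 and 9.98 for troponin I (TNNI2 to TNNI1), 1.98 and 3.29 for troponin T (TNNT3 to TNNT1), and 4.74 and 6.69 for the regulatory light chain (MYLPF to MYL2). For myosin-binding protein C the slow isoform was the higher one, as MYBPC2 to MYBPC1 had ratios of 0.110 and 0.0862.

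The transcription factors of the muscle lineage, which are markers of muscle nuclei and satellite cells, were found in the same libraries. MYF6, the factor of mature fibres, had 2109 reads in AT 3 and 1043 in Control 1, MYOG had 760 and 85, and MYOD1 had 302 and 38. PAX7, the marker of satellite cells, had 164 and 60 reads, and MYF5 had 84 and 25. Each of the 5 had 0 to 4 reads in every other thyroid library, and their summed level was at most 0.144 CPM there and at most 0.290 CPM in BAT. Cold 4 and Control 2 were therefore not set apart by these factors at this depth. Of the developmental genes, 4 that were found by name summed to 49.1 CPM in AT 3, 5.33 in Control 1 and 0.669 to 11.9 in the other 13, and MYH8, a perinatal myosin heavy chain matched by gene ID, had 45723, 787 and 0 to 61 reads.

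Markers of other cell types were read beside these values, and their part in the differences was not tested. The 6 heart muscle markers summed to 13.8 CPM in AT 3 and 3.15 in Control 1, within the 1.47 to 23.7 of the other 13 thyroid libraries, and NPPA, which marks atrial muscle, was at 0 in every library. The sum was carried by TNNT2, with 299 reads in AT 3, 44 in Control 1 and 580 in Control 2, whereas TNNI3, the heart troponin I, had 111 reads in AT 3 and 43 in Control 1 against 4 to 24 in the other 13. The 7 smooth muscle markers summed to 206 and 164 CPM, within 122 to 307, but CNN1 had 840 normalised counts in AT 3 against at most 211 in the other 13, and LMOD1 had 698 against at most 468. The 7 fat markers summed to 74.4 and 138 CPM, within 66.3 to 553 and below the 1433 to 5476 of BAT. The lists for adrenal cortex and kidney (1.06 and 1.19 CPM) and for salivary gland, airway and cartilage (0.332 and 0.456 CPM) were also low in the muscle-rich libraries.

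The 10 thyroid follicular cell markers, among them thyroglobulin, summed to 32703 CPM in AT 3, the lowest thyroid value, to 93041 in Control 1, and to 48743 to 156828 in the other 13. They summed to 2.46 to 49.2 CPM in BAT, so the labelled tissues held, although SLC26A4 of that list had at most 1 read. The lowest of the 13 was Control 2, with 48743 CPM, which had most reads of the parathyroid genes PTH (4571) and GCM2 (440). The 4 parathyroid and C cell markers summed to 506 CPM in AT 3, 984 in Control 1 and 8.56 to 9440 in the rest.

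In BAT most of the 10 genes were near the limit of detection. KLHL40 had 0 to 6 reads, with 0 in 7 libraries, CKM had 0 to 4 with 0 in 5, MYLPF 0 to 10, MYBPC1 0 to 7 and KLHL41 0 to 15. TNNC2 had 2 to 21 reads and MB 5 to 34, each in all 15 libraries. MB had 16.98 to 41.2 normalised counts in the 3 controls, 6.95 to 17.2 in the AT group and 5.64 to 27.99 in the cold group, so the groups overlapped. In a fit without the filter on low counts, none of the 10 genes was called in BAT, and ACTA1, MB and TNNT3 had an unadjusted p under 0.05 for AT against control in edgeR.

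Only ACTA1, TNNI2 and TNNT3 had enough reads to pass the filter in BAT. ACTA1 had 21, 41 and 101 reads in Control 1, 2 and 3, 4 to 59 in the AT group with a median of 11.5, and 10 to 88 in the cold group with a median of 21.5. TNNT3 had 269, 141 and 172 reads in the controls, 64 to 267 in the AT group (median 96.5) and 57 to 150 in the cold group (median 113). TNNI2 had 47, 26 and 113 reads in the controls, 35 to 83 in the AT group (median 52) and 32 to 82 in the cold group (median 57). The read counts of all 3 genes overlapped between the groups, and so did their normalised counts.

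**Figure D4:**
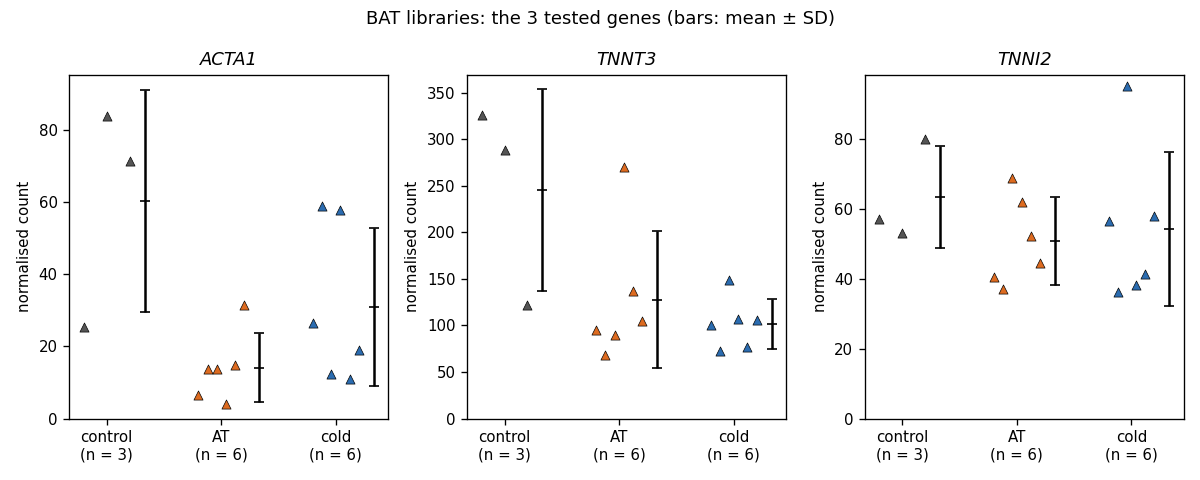
Normalised counts of ACTA1, TNNT3 and TNNI2 in BAT, with 1 point per library and the mean ± SD of each group beside them (control n = 3, AT n = 6, cold n = 6). The means of ACTA1 are 60.2 in the control group, 14.1 in the AT group and 31.0 in the cold group, and those of TNNI2 lie between 50.8 and 63.4.

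In normalised counts ACTA1 had a mean of 60.2 ± 30.7 (SD, n = 3) in the control BAT, 14.1 ± 9.62 (SD, n = 6) in AT and 31.0 ± 22.0 (SD, n = 6) in cold. TNNT3 had 245 ± 109 in the control group, 128 ± 73.6 in AT and 102 ± 26.9 in cold, with the same n. None of the 3 genes was called (a log2 fold change of at least 1 in size and an adjusted p under 0.05 by edgeR's quasi-likelihood test) in any of the 3 BAT comparisons, where 1.21% of 14905 genes were called for cold against control, 6.02% for AT against control and 0.275% for cold against AT. The log2 fold change of ACTA1 was -1.84 ± 0.66 (SE) for AT against control, -0.75 ± 0.67 for cold against control and 1.09 ± 0.52 for cold against AT. That of TNNT3 was -0.90 ± 0.44, -1.22 ± 0.43 and -0.32 ± 0.33, and that of TNNI2 was -0.53 ± 0.37, -0.43 ± 0.37 and 0.10 ± 0.27. These fold changes leave out Control 2. With all 3 controls, without AT 6, or with Control 2 in place of Control 1, ACTA1 passed the threshold for AT against control, and TNNT3 passed it for AT without AT 4 and for cold with Control 2 in place of Control 3.

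Of the 37 further skeletal muscle genes tested in BAT, 1 was called for cold against control, 5 for AT against control and none for cold against AT. Of all tested genes 1.21%, 6.02% and 0.275% were called. For cold against AT 7 of the 37 had an unadjusted p under 0.05 in edgeR, beside 1834 of all 14905 genes, and DESeq2 called 0 of the 37. The gene called for cold against control was FBXO32, a ubiquitin ligase of muscle wasting, with a log2 fold change of 1.09 ± 0.25 (SE). It was not called when Cold 1, 2, 3, 4 or 6, AT 3 or AT 5 was left out. For AT against control FBXO32 (1.36 ± 0.25) and the protease CAPN3 (2.05 ± 0.47) rose, whereas FABP3 (-2.01 ± 0.48), SRL (-1.71 ± 0.31) and TPM2 (-1.30 ± 0.26) fell. FBXO32, CAPN3 and SRL were named after their values were seen. Several of these are also made outside muscle, and TPM2 had the highest level per length of the list in BAT, with 290 TPM in Control 3. It was followed there by FABP3 with 42.3 TPM, TRDN with 26.1, SLC2A4, the insulin-responsive glucose transporter, with 18.7, ASB11 with 18.6, PHKG1 with 16.5, SGCA with 13.9 and CKMT2 with 12.6.

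For the thyroid comparisons, 16122 genes reached 10 reads in 10 or more of the 14 libraries used, and 7 of the 10 genes were among them. CKM reached 10 reads in 6 libraries and MYLPF and MB in 9, so these 3 were not tested. For cold against control, the log2 fold change was -7.82 ± 3.62 (SE) for ACTA1, -7.17 ± 3.05 for TNNC2, -7.03 ± 2.92 for TNNI2, -7.58 ± 3.05 for TNNT3, -7.29 ± 3.04 for MYBPC1, -5.24 ± 1.39 for KLHL40 and -9.51 ± 2.93 for KLHL41. The median over the 7 was -7.29, beside a median of -0.28 and a median SE of 0.276 over all tested genes. KLHL40 and KLHL41, in which Control 1 was the highest library, were called, which is 2 of 7, where 8.04% of all tested genes were called (305 higher and 992 lower in cold). With TMM or median-of-ratios scaling 1 of the 7 was called, and without Cold 2, Cold 5 or Cold 6 none was, with a lowest edgeR adjusted p of 0.0506 to 0.0513 over those 3 fits (0.000402 to 0.483 over all alternatives).

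For AT against control, the same genes had log2 fold changes of 1.75 ± 3.99 (SE) for ACTA1, 1.68 ± 3.38 for TNNC2, 1.67 ± 3.27 for TNNI2, 1.44 ± 3.30 for TNNT3, 1.71 ± 3.33 for MYBPC1, -2.62 ± 1.35 for KLHL40 and -1.64 ± 2.49 for KLHL41. None of the 7 was called, and none had an unadjusted p under 0.05 in edgeR, where 7.81% of all tested genes were called (295 higher and 964 lower in AT). DESeq2 gave no adjusted p for any of the 7. Here a muscle-rich library stood in each of the groups compared.

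For cold against AT, the log2 fold changes of the 7 genes lay between -9.56 ± 3.66 (SE) for ACTA1 and -2.62 ± 1.13 for KLHL40, with a median of -8.86. No gene of the whole table was called (0% of 16122) although 870 had an unadjusted p under 0.05 in edgeR, all 7 among them, and DESeq2 called 2. The groups overlapped in each of the 7 genes, as only AT 3 of the 6 AT libraries lay above all cold libraries for most of them.

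Leaving out AT 3 changed these values. For cold against control, the median over the 7 genes stayed at -7.31, but the median SE was 1.41 against 3.04 before, and 7 of 7 were called lower, where 10.8% of all genes were called in either direction and 8.45% lower. For AT against control the median went from 1.67 to -7.91 and the calls from 0 to 7 of 7, all lower, where 12.8% of all genes were called in either direction and 10.5% lower. For cold against AT the median went from -8.86 to 0.46, and none of the 7 had an unadjusted p under 0.05. Control 1 was then the 1 muscle-rich library, set beside Control 3 as the other control.

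Leaving out Control 1, with Control 2 in its place, gave the opposite picture. The median over the 7 genes was -1.28 for cold against control and 7.16 for AT against control, and 0 of 7 were called in both, where 9.84% and 8.8% of all genes were called. For cold against AT the median stayed at -8.86, since both groups were unchanged. The sign of the AT values thus turned with the 1 library left out.

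With both muscle-rich libraries left out and Control 2 and Control 3 as controls, the median over the 7 genes was -1.28 for cold against control, -2.04 for AT against control and 0.45 for cold against AT. TNNT3 was the 1 gene of the 7 called against control, with log2 fold changes of -2.96 ± 0.97 (SE) in cold, where 11.3% of all genes were called, and -3.26 ± 1.03 in AT, where 10.6% were. Its reads in those controls were 715 in Control 2 and 30 in Control 3. With Control 3 as the lone control, a choice made after seeing the data in which 1 library is assumed to vary like the other groups, KLHL40 was the 1 gene called, at -1.41 in cold and -1.37 in AT, where 15.3% and 18% of all genes were called, and the medians were 1.33 and 0.96. For cold against control the 3 choices without Control 1 thus gave medians from -1.28 to 1.33, against -7.29 with it.

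**Figure D5:**
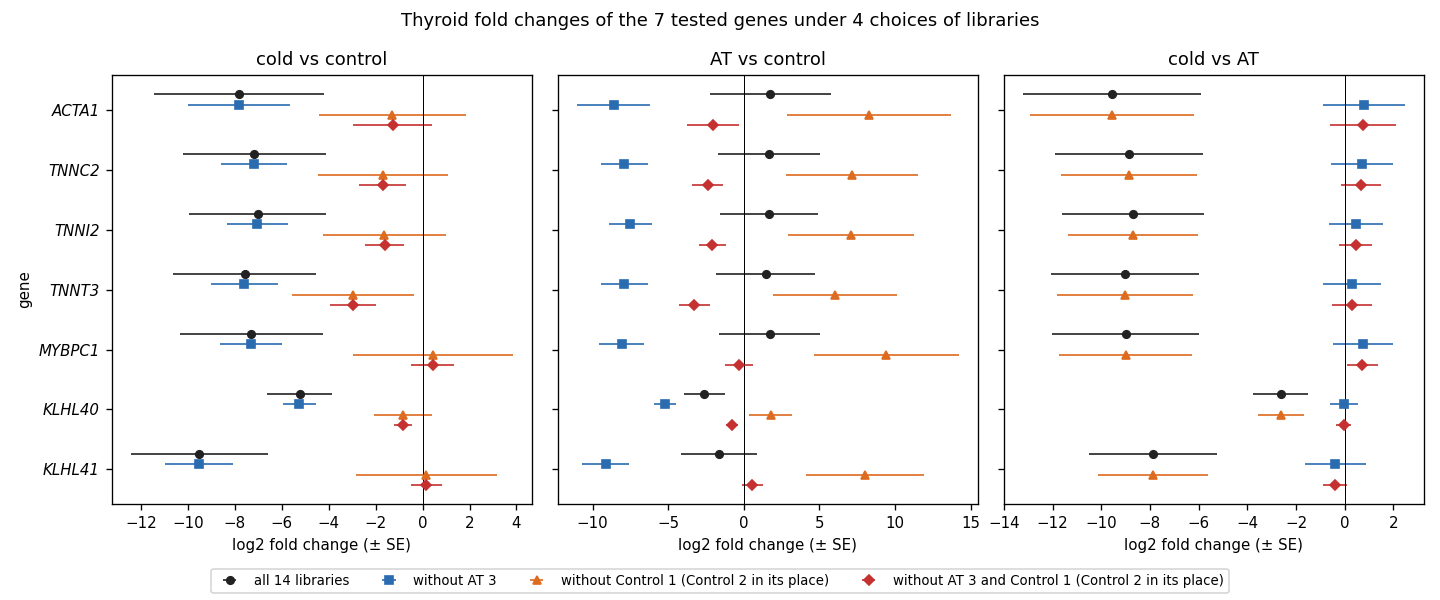
Log2 fold changes (points) with their SE (bars) of the 7 tested genes in the 3 thyroid comparisons, with all 14 libraries, without AT 3, without Control 1 and without both. For AT against control the median over the 7 genes is 1.67 with all libraries, -7.91 without AT 3, 7.16 without Control 1 and -2.04 without both.

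The further list moved alongside. Of its 40 genes tested in thyroid, 2 (FABP3 at -2.20 and ASB11 at -1.23, log2) were called for cold against control, 1 (FABP3 at -2.29) for AT against control and 0 for cold against AT, where 32 had an unadjusted p under 0.05 in edgeR, beside 8.04%, 7.81% and 0% of all tested genes called. FABP3 and ASB11 were not raised in the muscle-rich libraries. In normalised counts they stood at 0.172 and 0.885 times the highest of the 13 other thyroid libraries in AT 3, and at 0.302 and 0.914 times in Control 1. Without AT 3, 31 of the 40 were called lower in cold and 31 lower in AT against control, beside 8.45% and 10.5% of all tested genes, and 0 for cold against AT. Without both muscle-rich libraries 5 and 3 were called, with FABP3 and LMOD3 lower in both comparisons, ACTN3 and ASB11 lower in cold, and CAPN3 higher in both (1.86 and 1.79), beside 11.3% and 10.6% of all tested genes, so that these counts were near the share over all genes. FABP3 was the gene of the list with calls in both comparisons with and without the muscle-rich libraries, and ASB11 had that in cold.

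Over all genes, many calls were not made again when Control 2 entered the fit, and what besides the muscle level differs between these controls was not tested. With all 14 libraries 1297 genes were called for cold against control and 1259 for AT against control. With both muscle-rich libraries kept and Control 2 added, 723 (55.7%) and 609 (48.4%) of these calls were shared. When Control 1 is left out and Control 2 is not added, only 1 control remains. Leaving out libraries can therefore not set the losses that go with each of these controls against each other. With the 14 libraries unchanged and the log2 summed level of the further list as a covariate, 911 (70.2%) and 1162 (92.3%) of the calls were shared. Without AT 3 alone, 1296 of the 1297 cold calls and 1225 of the 1259 AT calls remained. With both libraries left out and Control 2 in place of Control 1, 690 (53.2%) and 600 (47.7%) were shared, or 37.7% and 35.1% of the 1828 and 1710 genes then called, and with only Control 1 exchanged for Control 2 626 and 544 were.

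The calls for cold that were lost with both libraries out and Control 2 and Control 3 as controls, and that were largest among named genes outside the lists here, were all lower in cold and all highest in Control 1. FLNC, the muscle filamin, had 67095 reads in Control 1, 42324 in AT 3, 96 in Control 2, 216 in Control 3 and 187 to 597 in the 11 other treated libraries, and its log2 fold change went from -7.21 ± 2.15 (SE) to 0.18 ± 0.35. HSPB8, a small heat shock protein, had 18263 reads in Control 1 and 7785 in AT 3, and went from -5.69 to 0.04. RRAD, a GTPase, had 3179 and 305 reads and went from -4.81 to -0.26, the growth factor HBEGF had 2732 and 900 and went from -4.23 to -0.20, and LMCD1 had 12522 and 1985 and went from -4.17 to -0.03. None of these 5 was highest in AT 3, as with KLHL40 and KLHL41.

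For AT the largest lost calls were RRAD (-3.87 to -0.24) and 4 genes that were higher in AT. GLYAT, with 1 read in Control 1 and 0 in Control 3 so that its fitted value depends on the prior count, went from 5.82 to 4.27 and ABCC8 from 4.11 to 1.11, and the cell division genes CDCA8 and IQGAP3 went from 3.34 to 2.82 and from 3.24 to 2.29. CDCA8 and IQGAP3 had 34 and 72 reads in AT 3 but only 0 and 1 in Control 1. Each of these 4 had more reads in some other library than in AT 3 or Control 1, and what moved their values was not tested.

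Of the 16122 tested thyroid genes, 186 (1.15%) had over 50% of their normalised counts over the 14 libraries in AT 3, 13 in Control 1 and at most 9 in any other library. The genes whose log2 normalised count was most like the mean of the 7 over the 15 thyroid libraries were MYOZ2 (Pearson's r = 0.992), TTN (0.988), ENO3 (0.988), HSPB7 (0.986), ACTN3 (0.984), NEB (0.983), NEXN (0.979), TCAP (0.975), PYGM (0.975) and DES (0.975). Over the 13 libraries without AT 3 and Control 1 the same r was 0.931 for MYOZ2, 0.834 for TTN and 0.590 for DES. Above 0.9 there were 78 of 16115 genes over the 15 libraries and 4 over the 13, so the likeness rested to a large part on the 2 libraries. These r values describe libraries that share their size factors, and no test was made of them. In BAT the most alike genes were UGGT1 (0.893) and COQ10B (0.877), and 0 of 14902 passed 0.9.

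GAPDH, which the study used as a reference in RT-qPCR and which muscle makes in large amounts, was read in the same libraries and named after its values were seen. It had 70579 reads in AT 3, 28687 in Control 1 and 10730 to 26384 in the other 13 thyroid libraries. ACTB, a reference gene of the scaling, had 42490 and 52194 reads in the muscle-rich libraries, within the 33069 to 76598 of the others. For RT-qPCR the study extracted RNA separately, scaled to ACTB and GAPDH together and reported both as unchanged. The reads here therefore do not describe the RNA of that RT-qPCR.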

How the data were processed

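The deposited counts are whole read counts per gene, and the authors made them as follows. RNA was extracted with TRIzol, mRNA was captured with oligo(dT) beads, and read pairs from the BGISEQ-500 platform were trimmed (Trimmomatic 0.39), aligned with STAR 2.7.7a to Oar_rambouillet_v1.0 and counted with featureCounts (Subread 2.0.0) with multi-mapping reads allowed. Coordinates are those of the count table.

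Groups were taken from the labels. CPM and TPM were computed from the counts. Per tissue, genes that reached 10 reads in 10 or more libraries were tested with edgeR 4.0.16 (R 4.3.3; quasi-likelihood test, 2-sided, Benjamini-Hochberg adjustment over all tested genes), with DESeq2 1.42.0 size factors from 3 reference genes and all 3 groups in the fit. A gene was called at a log2 fold change of 1 or more in size and an adjusted p under 0.05. The fit was tested on simulated data in which all genes had the same spread and no library was muscle-rich. That test does not cover the thyroid values of the 10 genes. The control that the study left out was found by matching the counts to its normalised values.

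The 10 genes, the gene lists and the tests were chosen with earlier results of these data known. Named were all 10 genes, fibre type genes and muscle transcription factors, the 8 further muscle genes highest per length in the library of each tissue richest in the 10, the 10 genes most alike in each tissue, and the 5 largest lost calls. Alternatives were other scalings, filters, controls, tools and left-out libraries, and a fit with the muscle level as a covariate. That muscle level was the log2 of the summed CPM of the further list, and not of the 10 genes. The samples of a group are separate lambs. MYH3, MYH6, MYH7, COX6A2 and COX7A1 were not analysed here.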

Additional observations from a re-analysis of the deposited data

Results flagged for a closer look

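In groups of 6 libraries, 21 of 40 values of the 10 genes had a highest library that stood apart from the others by Dixon's ratio (above 0.625). In the thyroid AT group this was AT 3 for all 10 genes, with normalised counts of 1291650 for ACTA1, 175849 for CKM, 377462 for MYLPF, 121747 for TNNC2, 223237 for TNNT3, 145496 for TNNI2, 27607 for MB, 80062 for MYBPC1, 3421 for KLHL40 and 31014 for KLHL41. In the thyroid cold group it was Cold 4 for 8 genes, with 1572 for ACTA1, 191 for CKM, 407 for MYLPF, 172 for TNNC2, 263 for TNNT3, 195 for TNNI2, 83.3 for MYBPC1 and 54.9 for KLHL41. MB and KLHL40 were not set apart in Cold 4. In BAT it was AT 3 for CKM with 4.23 normalised counts (4 reads), AT 4 for TNNT3 with 270 and Cold 3 for TNNI2 with 95.1. The genes were chosen for these values in thyroid, so the flags describe them and add no support, and control groups of 3 were not examined in this way. By chance the limit of 0.625 flags about 1 in 20 groups when values are normally distributed. The ratio was taken on normalised counts without a log, so that rate need not hold here.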

How the results depend on the processing

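No paired analysis was possible because each lamb is in 1 group and every comparison is within 1 tissue. Each count below is of called genes, and the cause of a change was not tested. For all genes, thyroid cold against control gave 792 with TMM scaling, 793 with DESeq2 median-of-ratios factors, 2466 with Control 3 alone and 3112 by the adjusted p alone (1297 in the report), and thyroid AT against control gave 744, 738, 2907 and 3387, and 726 with only the groups compared (1259 in the report). TMM moved the median of all thyroid genes from -0.28 to 0.02 in cold and from -0.28 to 0.05 in AT, and the split to 456 higher and 336 lower and to 474 and 270. DESeq2's Wald test called 2 genes for thyroid cold against AT. BAT cold against control (180) gave 318 with TMM, 327 with median-of-ratios factors, 628 with DESeq2, 723 with all 3 controls and 341 with only the groups compared. BAT AT against control (897) gave 488 with only the groups compared and 1369 by the adjusted p alone, and BAT cold against AT (41) gave 145 with DESeq2, 0 with all 3 controls and 24 with only the groups compared. For all genes, thyroid cold against control also gave 1178 of 23982 without the filter and 1289 of 18100 with filterByExpr. Of 16122 genes it gave 1574 with only the groups compared, 1828 without both muscle-rich libraries and 1204 with the muscle level as a covariate. Thyroid AT against control gave 1710 without both and 1510 with the covariate. Of the 10 genes in thyroid, cold against control (2 called) gave 1 with TMM, with median-of-ratios factors, without the filter, without both muscle-rich libraries and with the covariate. It gave 6 with only the groups compared, while AT against control (0) gave 1 without both and with the covariate. In BAT, AT against control (0) gave 1 with all 3 controls. Of the further list in thyroid, cold (2 of 40) gave 1 with TMM and with median-of-ratios factors. It gave 4 of 77 without the filter, 4 of 74 with filterByExpr, 28 of 40 with only the groups compared and 5 of 40 without both muscle-rich libraries. AT (1 of 40) gave 3 without both and 6 with the covariate. That covariate is built from the sum of this same list, so counts of the list with the covariate carry no support. The counts over all genes in the same settings are those above. In BAT, cold (1) gave 2 with median-of-ratios factors, 5 with DESeq2, 3 with all 3 controls, 0 without the filter, 2 with only the groups compared and 0 with the covariate. DESeq2 gave no adjusted p for the 7 genes and for 33 of the 40 further ones in thyroid. By normalised counts AT 3 stood at 6699 and Control 2 at 11.5 times the tissue median.

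KLHL41 in cold against control (-9.51, log2, and from -10.02 to 0.16 with 1 library left out) changed sign to 0.16 without Control 1, to 0.16 without both muscle-rich libraries and to 0.65 with Control 3 alone. Other genes turned sign too with 1 library left out. MYBPC1 ran from -8.13 to 0.43 in cold against control, and ACTA1 from -12.93 to 0.78 in cold against AT. In AT against control all 7 tested genes turned sign, as ACTA1 did from -8.61 to 8.28. Leaving out 1 library at a time gave 0 to 7 calls of the 10 genes for thyroid cold (0 without Cold 2, Cold 5, Cold 6 or Control 1, 1 without Cold 1, Cold 3 or Cold 4, 7 without AT 3) and 0 to 7 for thyroid AT, 1 to 31 and 0 to 31 of the further list, and 1009 to 2056 genes for thyroid AT, where AT 3 gave the upper value each time. In BAT it gave 99 to 976 genes, 0 to 1 of the 10 genes and 0 to 3 of the further list for cold, 669 to 1366, 0 to 1 and 3 to 7 for AT, and 0 to 99 genes for cold against AT. A control left out was replaced by Control 2, so that 2 choices changed there. The genes for BAT cold reached 872 and 976 with Control 2 in place of Control 1 and of Control 3, and 723 with all 3 controls, and fell to 110 and 99 without Cold 2 and Cold 6. Of the fold changes of single genes among the 10, 40 moved by more than 1 SD between replicates under other settings and 219 did not, and with 1 library left out 26 moved and 393 did not. These counts pool both tissues, and most of the thyroid fits kept AT 3 and Control 1, so they do not show that the thyroid values are stable.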
